A study of Mus musculus with 16 samples.

Results

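The 9 interferon-stimulated genes followed here in the mouse hippocampus were Ifit1, Ifit2, Ifit3, Isg15, Irf7, Oasl2, Usp18, Ifi44 and Rsad2. They were taken by name, and 7 of the 9 genes had a probe set that carries their symbol alone, out of 21780 such probe sets for 19935 genes. The probe set of Isg15 carries a second symbol, so its signal is not given under that name, and Ifi44 was not analysed here. Total RNA of the hippocampus was read on 16 GeneChip Mouse Gene 1.0 ST arrays, which hold probes along the whole transcript. Each array carried a pool of RNA from 4 females aged 3 months, 64 animals in all, bred as F2 animals from C57BL/6J and DBA. The groups were cbp+/- mice after 2 weeks of environmental enrichment (CBP_EE, 3 pools), cbp+/- mice in standard cages (CBP_SC, 5 pools), wild-type littermates after the same enrichment (WT_EE, 3 pools) and wild-type littermates in standard cages (WT_SC, 5 pools). Enrichment was a large shared box with wheels, tubes and toys, and tissue was taken at least 16 h after the box had last been rearranged.

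Type I interferons bind a receptor of the chains Ifnar1 and Ifnar2, and the kinases Jak1 and Tyk2 then activate a complex of STAT proteins and Irf9 that binds a response element in the promoters of target genes. Crebbp encodes CBP, a histone acetyltransferase that is known to serve as a coactivator for STAT2 and for interferon regulatory factors. In the uninfected brain the targets are held at a low level by weak tonic signalling, and microglia, astrocytes, neurons and endothelial cells can all raise them. In RNA of whole tissue, fewer cells of a type and less RNA per cell cannot be told apart. The proteins of the Ifit family bind foreign RNA and hold back its translation. Rsad2 (viperin) makes a nucleotide that stops viral polymerases, Oasl2 is a relative of the oligoadenylate synthetases, Irf7 is the transcription factor that amplifies interferon production, and Usp18 removes Isg15 from proteins and damps signalling at the receptor.

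The promoter windows of Ifit1, Ifit3 and Rsad2 are shown because they hold the core of the interferon-stimulated response element and because the first pair moved together on single arrays while the last did not. Each window runs from 250 bases before the transcript start to 50 after it, is written along the gene's strand and comes from RefSeq on GRCm38.p6. Ifit1 lies at chr19:34640639-34640938 on the plus strand, Ifit3 at chr19:34583279-34583578 on the plus strand and Rsad2 at chr12:26456403-26456702 on the minus strand. Capitals mark matches to GAAA, any 2 bases and GAAA again, searched on both strands. In these windows each match lies on the strand opposite to the gene and is printed as its reverse complement.
Ifit1: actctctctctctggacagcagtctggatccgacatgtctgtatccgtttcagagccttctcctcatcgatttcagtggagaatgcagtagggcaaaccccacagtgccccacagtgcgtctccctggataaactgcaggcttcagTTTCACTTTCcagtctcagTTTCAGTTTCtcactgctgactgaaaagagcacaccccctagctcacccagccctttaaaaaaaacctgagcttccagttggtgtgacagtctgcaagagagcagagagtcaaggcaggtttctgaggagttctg
Ifit3: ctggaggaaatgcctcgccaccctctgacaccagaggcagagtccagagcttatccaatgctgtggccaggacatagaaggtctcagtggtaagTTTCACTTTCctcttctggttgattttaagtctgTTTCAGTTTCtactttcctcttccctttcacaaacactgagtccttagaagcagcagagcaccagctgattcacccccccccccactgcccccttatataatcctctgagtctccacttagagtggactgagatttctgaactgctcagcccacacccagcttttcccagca
Rsad2: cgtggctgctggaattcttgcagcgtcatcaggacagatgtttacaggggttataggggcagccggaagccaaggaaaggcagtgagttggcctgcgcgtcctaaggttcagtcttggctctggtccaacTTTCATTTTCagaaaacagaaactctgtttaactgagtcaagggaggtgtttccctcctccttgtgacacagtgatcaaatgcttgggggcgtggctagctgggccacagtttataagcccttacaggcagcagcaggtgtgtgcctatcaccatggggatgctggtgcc

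Ifit1 held 2 matches, at bases -104 to -95 and -85 to -76 from the start. Ifit3 also held 2 matches, at -156 to -147 and -122 to -113. Rsad2 held 1 match, at -120 to -111. Isg15 had 3 overlapping matches on its own strand, while no match was found in the windows of Ifit2, Irf7, Oasl2 and Ifi44. The 8 genes found in the table have 9 windows, of which 4 (44.4%) held the core, against 3.44% of all 32851 promoter windows of the same length. A match is a description of these letters and not a measured binding site.

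**Figure D1:**
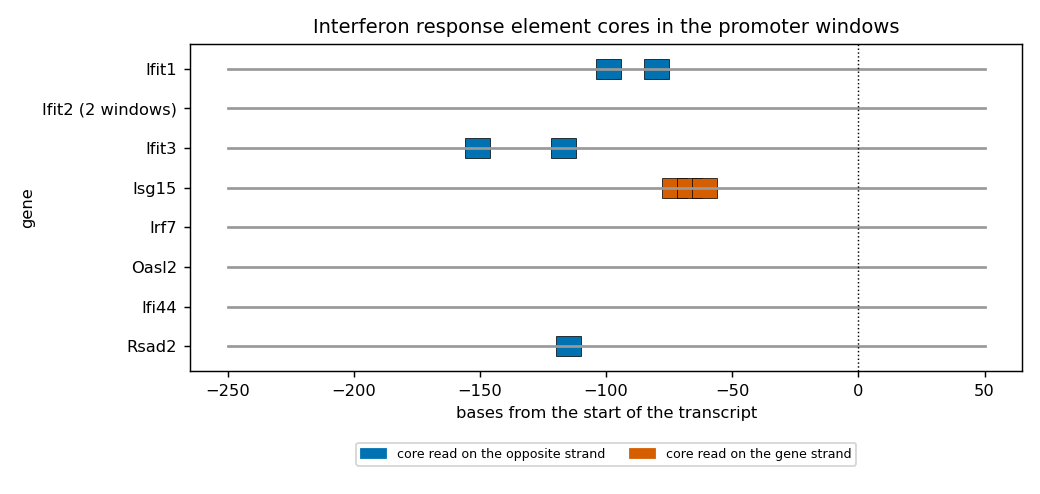
Positions of the response element core in the promoter windows of the 8 genes found in the RefSeq table; the horizontal axis is the distance in bases from the transcript start, and each bar is a match, coloured by the strand on which the core is read. Ifit1 and Ifit3 hold 2 matches each, Isg15 holds 3 overlapping ones and Rsad2 holds 1.

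The labels were checked first. Crebbp averaged 9.36 ± 0.025 on the log2 scale in CBP_EE, 9.57 ± 0.22 in CBP_SC, 9.26 ± 0.082 in WT_EE and 9.43 ± 0.18 in WT_SC (SD over arrays). Signals of cbp+/- pools were thus not below those of wild-type pools, and neither the difference in standard cages (0.14, SE 0.099, adjusted p = 1.00 in limma) nor that in enrichment (0.098, SE 0.13, adjusted p = 0.976) was called. Because the probes lie along the whole transcript, this reading is only a partial check of the genotype. Neuronal markers of the hippocampus were bright, with mean log2 signals of 11.89 for Snap25, 9.61 for Zbtb20 and 8.42 for Prox1. The arrays were placed in 4 sets, a number that was set and not found, by the correlation of their overall values. Same-numbered pools of both genotypes were averaged within a housing first, so each set holds both genotypes by construction. Replicates 1 and 2 of all groups form the first set, and replicate 5 of the standard cages with replicate 3 of enrichment the second. Replicates 3 and 4 of the standard cages form the others. Probe sets as bright as the members also had a shifted level on some arrays, and their median deviation was highest on WT_EE_1, at 0.15.

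All 7 probe sets were dim. Their mean log2 signals over the 16 arrays were 5.41 for Usp18, 5.65 for Ifit1, 5.72 for Ifit2, 5.76 for Irf7, 5.77 for Ifit3, 5.82 for Rsad2 and 6.48 for Oasl2, all below the median probe set at 6.59. These values describe how far each probe set stands above the floor of the array and do not rank the amounts of the transcripts. As a gauge of that floor, the probe sets of olfactory receptors had a median of 4.88, and between 89.8% of them (below Usp18) and 99.5% (below Oasl2) were dimmer than a member. Small differences at such levels are hard to resolve. Below, "similar brightness" means the 6535 probe sets between the 20th and 50th percentile of mean signal, a range that holds all 7 members.

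Ifit1 and Ifit3 stood out by high signals on 2 single arrays. Ifit1 had log2 signals of 5.55, 5.87 and 5.64 in CBP_EE, and of 5.83, 5.54, 5.45, 5.47 and 6.04 in CBP_SC. It had 5.47, 5.61 and 6.23 in WT_EE, and 5.45, 5.58, 5.51, 5.64 and 5.44 in WT_SC. The highest values lie on WT_EE_3 and CBP_SC_5, arrays of different genotype and housing, and the 4 groups overlap apart from these. The group means ran from 5.77 ± 0.41 in WT_EE through 5.69 ± 0.17 in CBP_EE and 5.66 ± 0.26 in CBP_SC to 5.52 ± 0.084 in WT_SC, and each neighbouring step was smaller than the larger SD of its 2 groups.

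Ifit3 had log2 signals of 5.63, 5.66 and 5.88 in CBP_EE, and of 5.69, 5.53, 5.48, 5.69 and 6.43 in CBP_SC. It had 5.50, 5.89 and 6.40 in WT_EE, and 5.63, 5.75, 5.49, 5.91 and 5.80 in WT_SC. The same arrays, CBP_SC_5 and WT_EE_3, were again the highest, and the remaining pools of the 4 groups overlapped. Means were 5.72 ± 0.14 in CBP_EE, 5.76 ± 0.38 in CBP_SC, 5.93 ± 0.45 in WT_EE and 5.72 ± 0.16 in WT_SC, so no neighbouring pair in their order differed beyond its spread.

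On WT_EE_3, Ifit1 lay 0.59 and Ifit3 0.62 above their own means over the 16 arrays, higher than 98.4% and 98.7% of all probe sets on that array. On CBP_SC_5, Ifit1 lay 0.39 above its mean (96.4% of probe sets were lower) and Ifit3 0.66 (99.5%). By this percentile Ifit1 was nearly as high on CBP_EE_2 (0.23 above its mean, 96.0%) and on CBP_SC_1 (0.18, 95.3%). The highest array exceeded the lowest 1.74-fold for Ifit1 and 1.92-fold for Ifit3, against 1.27-fold to 1.46-fold for the other 5 genes. Within groups, Ifit1 varied more than 95.9% and Ifit3 more than 98.7% of probe sets of similar brightness, while Rsad2 varied more than 6.03%. WT_EE_3 and CBP_SC_5 belong to the second array set, whose other arrays, CBP_EE_3 and WT_SC_5, had Ifit1 at 5.64 and 5.44 and Ifit3 at 5.88 and 5.80.

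**Figure D2:**
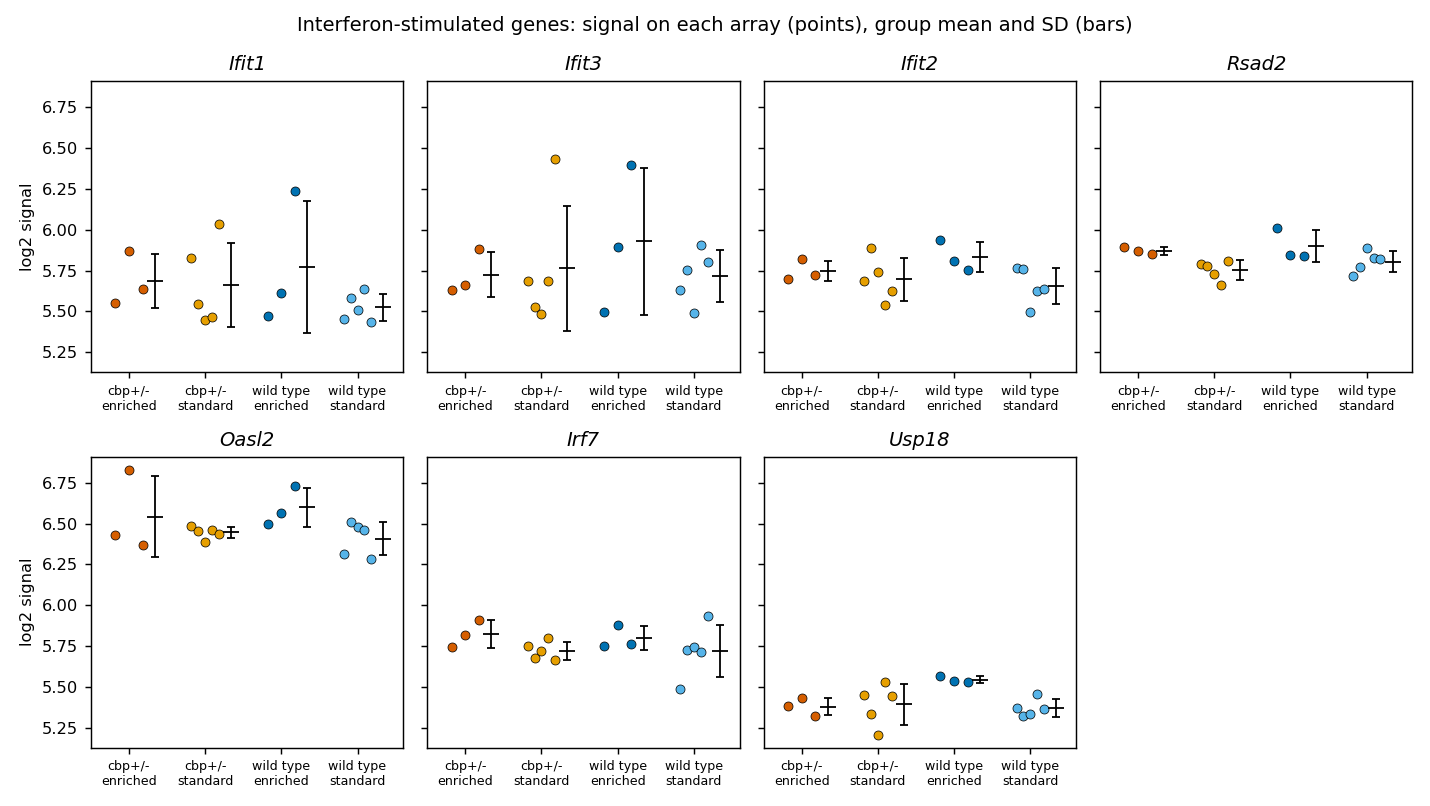
Log2 signal of the 7 genes in the 4 groups; points are single arrays (each a pool of 4 animals), and bars beside them show the group mean and SD. Ifit1 and Ifit3 have 1 high point each in cbp+/- standard cage and in wild-type enrichment, and the remaining points of the groups overlap.

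Ifit3 has a near-identical copy and Ifit1 a relative, and a probe set can take signal from a copy. Ifit3b, a close copy of Ifit3, has a probe set of its own. It read 5.47 on CBP_SC_5, its highest value, against 5.08 to 5.40 on the 14 arrays other than these 2, while on WT_EE_3 it read 5.24, inside that range. Ifit3b and Ifit3 had a Pearson correlation of 0.70 over the 16 arrays and 0.68 over the 14. Ifit1bl2, a relative of Ifit1, read 5.08 on CBP_SC_5 and 4.86 on WT_EE_3, against 4.80 to 5.02 on the others. Its Pearson correlation with Ifit1 was 0.28 over the 16 arrays and 0.07 over the 14. Ifit3b and Ifit1bl2, chosen after their values were seen, were thus high on CBP_SC_5 and not on WT_EE_3. How much of the Ifit3 signal comes from its copy was not tested.

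Over the 16 arrays, Ifit1 and Ifit3 had a Pearson correlation of 0.80 (permutation p = 0.00117, 0.0246 after Benjamini-Hochberg adjustment over the 21 pairs of members) and a Spearman correlation of 0.62 (permutation p = 0.0120, adjusted 0.252). These permutations treat the 16 arrays as exchangeable and ignore the array sets and the same-numbered pools that deviated together. Without CBP_SC_5 and WT_EE_3, the 2 arrays farthest from the median of Ifit1, Pearson's r was 0.31, so the relation rests on those arrays. Within the 8 arrays of the first set it was also 0.31. Among all pairs of probe sets, 0.919% were as highly correlated as Ifit1 and Ifit3, and among pairs of similar brightness 1.81% were. Ifit1 and Oasl2 had r = 0.64 over the 16 arrays (permutation p = 0.0121, adjusted 0.128; rho = 0.54, p = 0.0347, adjusted 0.365), with 0.70 without CBP_SC_5 and WT_EE_3 and 0.74 within the first set. With CBP_EE_2, where Oasl2 was highest, also left out (a choice made after the data were seen), those values were 0.42 and 0.42, so they lean on that array.

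The 7 genes had a low median correlation with each other. Of their 21 pairs, 18 had a correlation above 0, with a median r of 0.23 and a range of -0.17 to 0.80. Above 0 were 51.6% of pairs of all probe sets and 68.1% of pairs of similar brightness. Pairs of similar brightness had a median of 0.22 and pairs of all probe sets 0.02, so the members' median lies near that of other dim probe sets. After the group means were removed, the median over the members was 0.02, with 11 of 21 above 0, against 0.15 over pairs of similar brightness. The shares above 0 were then 52.3% of all pairs and 63.2% of those of similar brightness.

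**Figure D3:**
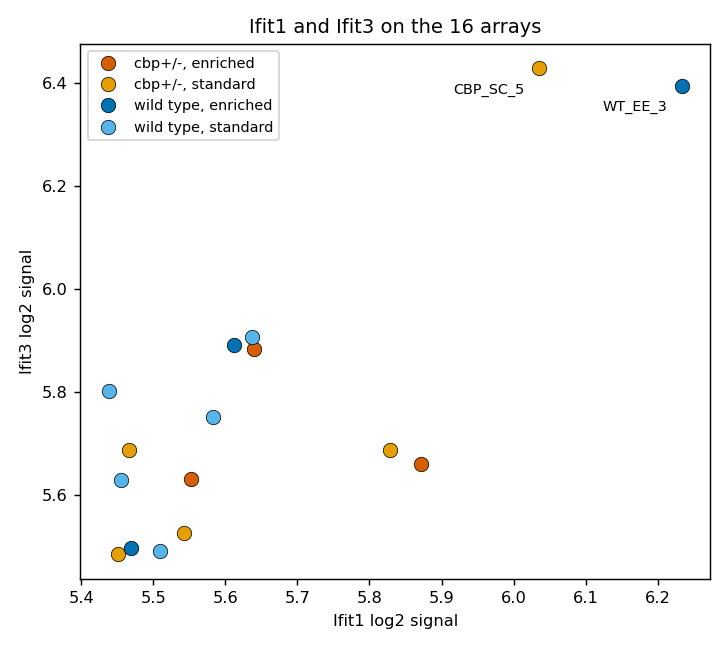
Ifit3 against Ifit1 log2 signal on the 16 arrays, coloured by group. WT_EE_3 (6.23 and 6.40) and CBP_SC_5 (6.04 and 6.43) lie apart from the other 14 arrays, among which Pearson's r was 0.31.

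The other genes had narrower ranges. Ifit2 had log2 signals of 5.70, 5.82 and 5.72 in CBP_EE and of 5.69, 5.89, 5.74, 5.54 and 5.63 in CBP_SC, against 5.93, 5.81 and 5.75 in WT_EE and 5.76, 5.76, 5.50, 5.63 and 5.64 in WT_SC. It was highest on WT_EE_1 and not raised on either array with high Ifit1 and Ifit3, although it lies in the same gene cluster of chromosome 19. Its group means were 5.75 ± 0.062 in CBP_EE, 5.70 ± 0.13 in CBP_SC, 5.83 ± 0.093 in WT_EE and 5.66 ± 0.11 in WT_SC.

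Rsad2 had 5.90, 5.87 and 5.85 in CBP_EE and 5.79, 5.78, 5.73, 5.66 and 5.81 in CBP_SC, against 6.01, 5.84 and 5.84 in WT_EE and 5.71, 5.77, 5.89, 5.83 and 5.82 in WT_SC. Enriched cbp+/- pools lay above every cbp+/- pool from standard cages, while in wild type the housings overlapped. Group means were 5.87 ± 0.024 in CBP_EE, 5.75 ± 0.059 in CBP_SC, 5.90 ± 0.098 in WT_EE and 5.80 ± 0.065 in WT_SC.

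Oasl2 had 6.43, 6.83 and 6.37 in CBP_EE and 6.48, 6.45, 6.39, 6.46 and 6.44 in CBP_SC, against 6.50, 6.56 and 6.73 in WT_EE and 6.31, 6.51, 6.48, 6.46 and 6.28 in WT_SC. Its highest value lies on CBP_EE_2, 0.35 above its mean and higher than 99.4% of probe sets on that array. Ifit1 was 0.23 above its mean there, higher than 96.0%. Its next highest value lies on WT_EE_3, and the groups overlap. Group means were 6.54 ± 0.25 in CBP_EE, 6.45 ± 0.036 in CBP_SC, 6.60 ± 0.12 in WT_EE and 6.41 ± 0.10 in WT_SC.

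For Irf7 the signals were 5.74, 5.82 and 5.91 in CBP_EE and 5.75, 5.68, 5.72, 5.80 and 5.67 in CBP_SC, against 5.75, 5.88 and 5.76 in WT_EE and 5.49, 5.73, 5.75, 5.71 and 5.94 in WT_SC. This transcription factor had its lowest and its highest array in the same group, WT_SC. Group means were 5.82 ± 0.084 in CBP_EE, 5.72 ± 0.055 in CBP_SC, 5.80 ± 0.071 in WT_EE and 5.72 ± 0.16 in WT_SC.

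The values of Usp18 were 5.38, 5.43 and 5.33 in CBP_EE and 5.45, 5.34, 5.21, 5.53 and 5.44 in CBP_SC, against 5.57, 5.54 and 5.53 in WT_EE and 5.37, 5.33, 5.33, 5.46 and 5.36 in WT_SC. All 3 WT_EE pools lay above every pool of CBP_EE and of WT_SC. Group means were 5.38 ± 0.053 in CBP_EE, 5.40 ± 0.12 in CBP_SC, 5.55 ± 0.020 in WT_EE and 5.37 ± 0.054 in WT_SC, and the 3 groups other than WT_EE did not differ beyond their spread.

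**Figure D4:**
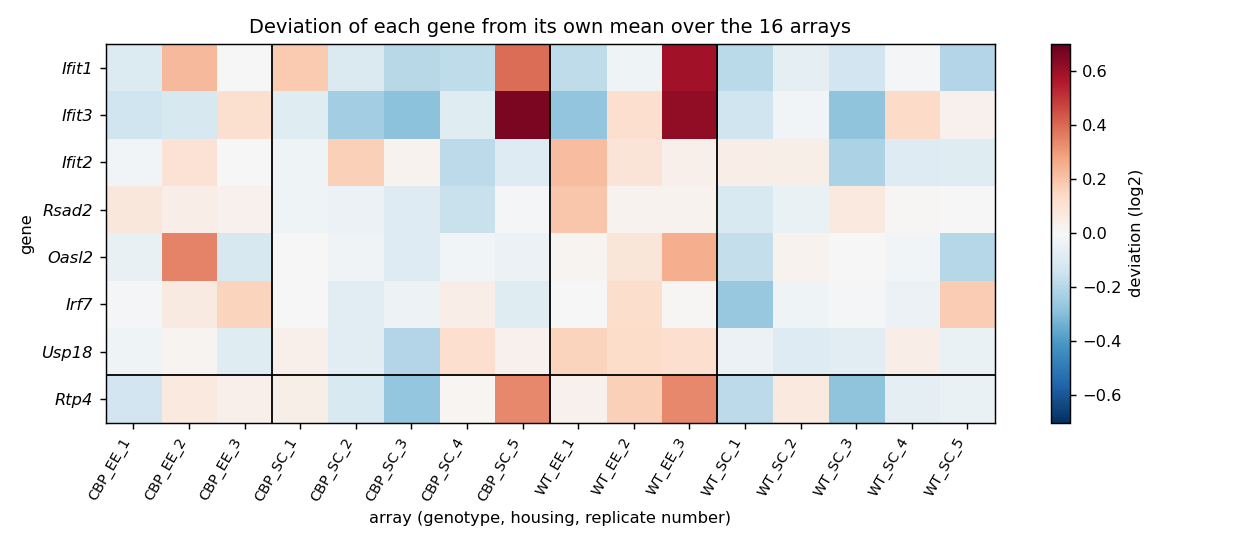
Deviation of each gene from its own mean over the 16 arrays (log2, colour scale), with arrays in columns by group and Rtp4 added below the 7 members. The reddest cells of Ifit1, Ifit3 and Rtp4 lie on WT_EE_3 and CBP_SC_5, and that of Oasl2 on CBP_EE_2.

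In wild type, all 7 genes had a higher mean in WT_EE than in WT_SC, and 0 passed an adjusted p of 0.05 in the limma fit, as did 0% of all probe sets. The log2 differences were 0.25 for Ifit1 (SE 0.16, adjusted p = 0.438), 0.21 for Ifit3 (SE 0.21, adjusted p = 0.619), 0.19 for Oasl2 (SE 0.092, adjusted p = 0.293), 0.18 for Ifit2 (SE 0.078, adjusted p = 0.260) and 0.17 for Usp18 (SE 0.062, adjusted p = 0.187). Rsad2 and Irf7 had smaller differences, 0.095 (SE 0.053) and 0.077 (SE 0.077). At an unadjusted p of 0.05, 2 of 7 members (Ifit2 and Usp18) and 17.8% of all probe sets passed.

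The count of 7 above 0 has to be read against 58.4% of all probe sets and 81.8% of those of similar brightness with a difference above 0. The members' median difference was 0.18, against 0.03 over all probe sets and 0.11 over those of similar brightness. With each array centred on probe sets of similar brightness, an alternative chosen after the data were seen, the members' median was 0.064. Usp18 was the only member whose WT_EE pools all lay above every WT_SC pool, as 9.16% of all probe sets and 17.4% of those of similar brightness did.

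One array carried the differences of Ifit1 and Ifit3. Without WT_EE_3 the difference of Ifit1 in wild type was 0.017 and that of Ifit3 -0.022. Within the first array set (2 pools against 2) Ifit1 differed by 0.022 and Ifit3 by 0.0041, while within the second set (1 pool against 1) the differences were 0.80 and 0.59. Usp18 differed by 0.20 in the first set and 0.17 in the second, and leaving out any 1 array kept its difference between 0.16 and 0.20. Its adjusted p over all alternatives ran from 0.0842 to 0.787.

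Enrichment in cbp+/- mice gave smaller differences. Rsad2 was 0.12 higher in CBP_EE than in CBP_SC (SE 0.053, adjusted p = 0.999), with all 3 enriched pools above every pool from standard cages, as was seen for 1.64% of all probe sets and 2.74% of those of similar brightness. The differences were 0.10 for Irf7, 0.097 for Oasl2, 0.051 for Ifit2, 0.023 for Ifit1, -0.014 for Usp18 and -0.038 for Ifit3. None of the 7 was called, as 0% of all probe sets were, and 1 member (Rsad2) and 2.82% of all probe sets passed an unadjusted p of 0.05. Of the members 5 of 7 lay above 0, against 55% of all probe sets and 71.5% of those of similar brightness. Their median was 0.051, against 0.010 over all probe sets and 0.044 over those of similar brightness.

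Rsad2 kept a positive difference in cbp+/- mice when any 1 array was left out (0.094 to 0.13) and within both array sets (0.098 and 0.038). For Ifit3 the difference was 0.13 without CBP_SC_5, and for Ifit1 it was 0.12. Oasl2 rested on CBP_EE_2: without that array its difference was -0.046, and the other enriched cbp+/- pools, at 6.43 and 6.37, lay within or below the range of the standard-cage pools.

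Genotype in standard cages gave differences from -0.051 (Rsad2) to 0.14 (Ifit1) for CBP_SC minus WT_SC, and no interval excluded 0. The fit behind these intervals leaves aside that same-numbered pools of the genotypes deviated together. With those pairs as a block in limma, 957 of 21780 probe sets passed an unadjusted p of 0.05, against 215 in this fit. After adjustment 0 were called in both. Of the 7 members 6 lay above 0, against 53.7% of all probe sets and 54.3% of those of similar brightness. The median was 0.038, against 0.004 and 0.006. No member passed the adjusted threshold or an unadjusted p of 0.05, as against 0% and 0.987% of all probe sets. The difference of Ifit1 was 0.14 (SE 0.14, 95% interval -0.16 to 0.44, adjusted p = 1.00), and 0.047 without CBP_SC_5.

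Genotype in enrichment compares CBP_EE with the same WT_EE pools as the wild-type housing comparison, so that a high WT_EE pool enters both. The differences were -0.20 for Ifit3, -0.17 for Usp18, -0.084 for both Ifit1 and Ifit2, -0.056 for Oasl2, -0.029 for Rsad2 and 0.025 for Irf7. Of the members 1 of 7 lay above 0, against 41.7% of all probe sets and 24.7% of those of similar brightness, and the median was -0.084, against -0.020 and -0.067. All 3 CBP_EE pools had Usp18 below every WT_EE pool, as 6.85% of all probe sets and 9.33% of those of similar brightness did. Usp18 had SE 0.069, an unadjusted p of 0.0312 and an adjusted p of 0.924. It was the 1 member past an unadjusted p of 0.05, which 5.23% of all probe sets passed, and 0% passed the adjusted one. With same-numbered pools as a block, 2838 of 21780 probe sets passed the unadjusted p in limma, against 1139 here, and 0 were called. Without WT_EE_3 the difference of Ifit1 was 0.15 and that of Ifit3 0.030, so both signs turned.

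The interaction, the enrichment difference in cbp+/- minus that in wild type, ran from -0.25 (Ifit3) to 0.024 (Irf7), with a median of -0.12 against -0.019 over all probe sets and -0.069 over those of similar brightness. Usp18 had -0.19 (SE 0.088, unadjusted p = 0.0484, adjusted p = 1.00) and was the 1 member past an unadjusted p of 0.05, which 2.66% of all probe sets passed. Again 0% were called after adjustment. The responses of the members to enrichment are therefore not shown to differ between genotypes.

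Averaged over the genotypes, the housing differences of the 7 genes lay between 0.080 (Usp18) and 0.14 (Oasl2). All 7 were above 0, as were 58.9% of all probe sets and 81.2% of those of similar brightness, and the median was 0.11 against 0.021 and 0.079. The members' median was 0.021 after quantile normalization and 0.031 with arrays centred on probe sets of similar brightness. Rsad2 (0.11, SE 0.037, adjusted p = 0.181) and Oasl2 (0.14, SE 0.065, adjusted p = 0.251) were the 2 members past an unadjusted p of 0.05, which 19.1% of all probe sets passed, and 0% were called after adjustment. Averaged over the housings, the genotype differences ran from -0.078 (Ifit3) to 0.028 (Ifit1), with a median of -0.022. No member passed an unadjusted p of 0.05, against 3.91% of all probe sets, and 0% were called. With same-numbered pools as a block, 2554 of 21780 probe sets passed it in limma, against 852 in this fit, and 0 were called.

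**Figure D5:**
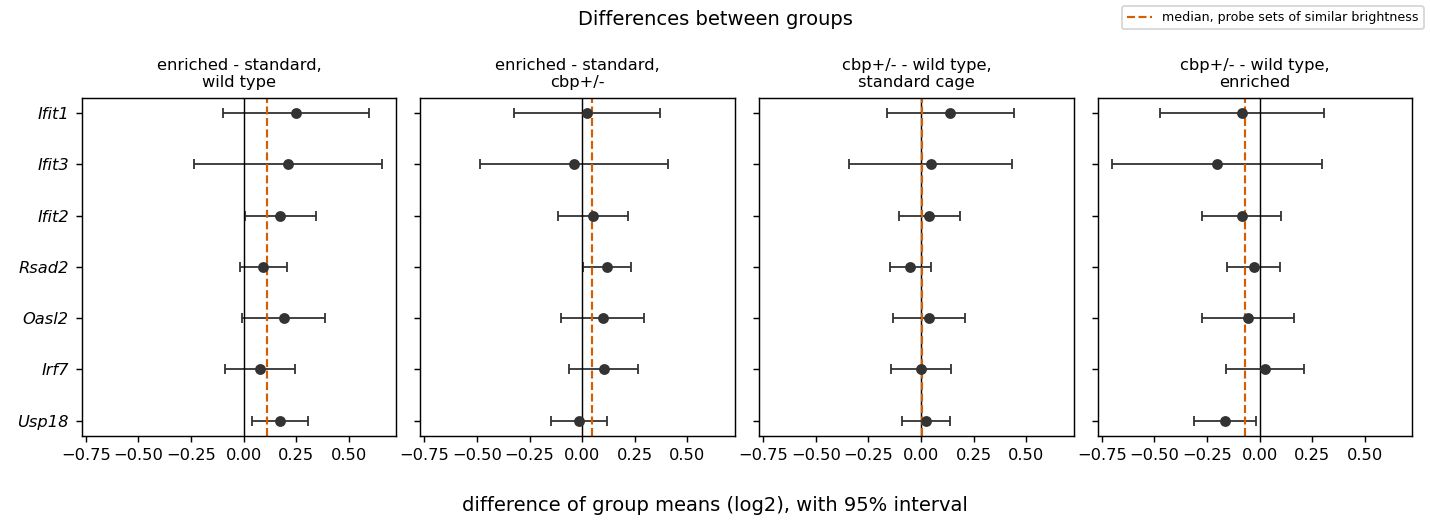
Differences of group means (log2, horizontal axis, with 95% intervals) of the 7 genes in 4 comparisons, with the median of probe sets of similar brightness as a dashed line. In wild type the mean of the enriched pools was higher for all 7 genes, by 0.077 (Irf7) to 0.25 (Ifit1). The dashed line there stands at 0.11, and 81.8% of probe sets of similar brightness also lay above 0.

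The genes most like the members in pattern were sought among 19928 genes by Pearson correlation with the mean deviation of the 7 genes over the 16 arrays, for which the median gene had r = 0.08. Rtp4, a chaperone of membrane receptors that is itself an interferon-stimulated gene, came first with r = 0.90, and with 0.84 over the 14 arrays without WT_EE_3 and CBP_SC_5. Its log2 signal was 6.25 on both WT_EE_3 and CBP_SC_5, against 5.63 to 6.08 on the others. After it came Ndufs6, a part of respiratory complex I (0.88), Gm5065 (0.87), Vmn1r181 (0.84), LOC100043315 (0.83), Atp5g3, a part of ATP synthase (0.83), Iqcf1 (0.83) and Gm14149 (0.82). All 8 were higher on WT_EE_3 than on any of the 14 other arrays. Their choice favours this, because the members' mean deviation was itself highest on WT_EE_3, at 0.24. Other type I interferon-stimulated genes were spread over the whole ranking. After Rtp4 the next of them was Parp14 at rank 61 (r = 0.74), Oas2 had -0.05, and the lowest was Adar with -0.56. Many of the 16 arrays share an array set, and these values are descriptions.

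The rest of the pathway was read from lists taken from textbook knowledge, and 0 genes of any list passed the adjusted threshold in any of the 7 comparisons, in either direction. For the lists, "similar brightness" keeps the range set for the members. Some list genes lie outside it, such as Jak1 with a mean log2 signal of 10.02, so the lists are not matched in brightness. Of 15 sensors of foreign nucleic acid and their adaptors, 11 lay above 0 in WT_EE minus WT_SC (median 0.057) and 10 in CBP_EE minus CBP_SC (median 0.037). All probe sets had medians of 0.029 and 0.0096 in these comparisons, and those of similar brightness 0.11 and 0.044. Above 0 lay 58.4% and 55% of all probe sets, and 81.8% and 71.5% of those of similar brightness. Myd88, the adaptor of most Toll-like receptors, had the smallest p of this list for housing, with an averaged difference of 0.21 (SE 0.067, adjusted p = 0.163). Ikbke, a kinase of interferon regulatory factors, and Dhx58, a relative of the RNA sensor Ddx58, followed with 0.11 and 0.14. For genotype, Ddx58 differed by 0.13 and the DNA sensor Tlr9 by -0.17, both with adjusted p = 0.999.

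Interferon ligands were represented by 14 of 18 listed genes, of which 12 lay above 0 with enrichment in wild type (median 0.10) and 11 in cbp+/- (median 0.026), against 81.8% (median 0.11) and 71.5% (median 0.044) of probe sets of similar brightness. Ifna5, Ifnab and Ifne had averaged housing differences of 0.29, 0.22 and 0.13, with adjusted p between 0.176 and 0.180. The genes of the Ifna cluster are near-identical copies, so their probe sets may share signal. Ifnb1 itself had a mean log2 signal of 5.31, a dim value at the 20.9th percentile of probe sets.

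Receptors and Janus kinases, 9 of 9 measured, had medians of -0.030 with enrichment in wild type and 0.025 in cbp+/-. Ifnlr1, the receptor chain for interferon lambda, differed by 0.11 between housings (adjusted p = 0.191). Ifnar2, the signalling chain of the type I receptor, was 0.59 above its mean on WT_EE_3, higher than 98.5% of probe sets on that array, and -0.13 from it on CBP_SC_5. Of the STAT and IRF transcription factors, 7 of 8 were measured, with medians of -0.009 and 0.019 for enrichment in wild type and in cbp+/-. Irf3, which induces interferon genes, had an averaged housing difference of 0.18 (adjusted p = 0.291), and Stat2 a genotype difference of 0.14 (adjusted p = 0.999).

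Other type I interferon-stimulated genes, 43 of 46 measured, had a median of 0.090 in WT_EE minus WT_SC, with 32 above 0, and of 0.001 in CBP_EE minus CBP_SC, with 22 above 0. Probe sets of similar brightness had medians of 0.11 and 0.044 in these comparisons, with 81.8% and 71.5% above 0. For genotype the medians were 0.035 in standard cages, with 33 of 43 above 0, and -0.035 in enrichment, with 20 above 0. In standard cages 53.7% of all probe sets and 54.3% of those of similar brightness lay above 0, with medians of 0.004 and 0.006. In enrichment the shares were 41.7% and 24.7%, with medians of -0.020 and -0.067. Parp14, an ADP-ribosyltransferase, had the smallest p for housing, 0.14 (SE 0.039, adjusted p = 0.142), followed by Ifi27l2a (0.18) and the helicase Ddx60 (0.080). For genotype, Eif2ak2 (PKR, which blocks translation on double-stranded RNA), Zc3hav1 and Parp12 differed by 0.16, 0.15 and 0.15, with adjusted p = 0.999.

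On the arrays with high Ifit1 and Ifit3 these 43 genes had small deviations in the median. On WT_EE_3, 30 of 43 lay above their own mean (median deviation 0.045), against 52.9% of all probe sets. On CBP_SC_5, 26 of 43 did (median 0.035), against 40.2% of all probe sets, whose median there was -0.027. On CBP_EE_2, where Oasl2 was high, 33 of 43 did (median 0.056), against 55.1%. Trim30a (0.39), Rtp4 (0.33), Ifi27l2a (0.31) and Oas3 (0.30) were among those above their means on WT_EE_3, but Mx1 (0.01) and Oas2 (-0.08), textbook interferon targets, were near their means. Ifitm3 was above its mean on both arrays, by 0.50 and 0.37, as Rtp4 was by 0.33 on each.

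Guanylate-binding and related GTPases, known mainly as targets of interferon gamma, were measured for 8 of 13 genes, with medians of 0.046 and 0.017 for enrichment in wild type and in cbp+/-. Gbp9 differed by 0.14 between housings (adjusted p = 0.256) and Irgm1 by 0.19 between genotypes (adjusted p = 0.999). Of MHC class I and antigen processing genes, 12 of 15 were measured, with medians of 0.020 and 0.011. B2m, the light chain of MHC class I, was 0.72 above its mean on CBP_SC_5, higher than 99.6% of probe sets, and 0.19 above it on WT_EE_3. It was also 0.58 above its mean on WT_SC_3 and -0.99 from it on WT_SC_4, where Ifit3 read 5.49 and 5.91. Negative regulators, 10 of 10 measured, had medians of 0.013 and -0.026. Socs1 and Socs3, which block Janus kinases, had averaged housing differences of 0.29 and 0.22, and Pias3, an inhibitor of STAT proteins, had -0.25 (adjusted p = 0.194, 0.173 and 0.166).

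Markers of cell types were read on the 2 arrays with high Ifit1 and Ifit3. On CBP_SC_5, 9 of 11 microglial markers lay above their own means (median deviation 0.20), led by C1qa (0.91) and C1qc (0.63), and their summed intensity was 2217, the highest of the CBP_SC range of 1630 to 2217. Those sums ran from 1613 to 2064 in CBP_EE, from 1689 to 1772 in WT_EE and from 1704 to 1866 in WT_SC. On WT_EE_3, 5 of 11 microglial markers lay above their means (median -0.005), though Aif1 was 0.64 above. CBP_EE_3 also had 9 of 11 above (median 0.13), with Ifit1 at 5.64 and Ifit3 at 5.88, the highest Ifit3 of its group and 0.11 above the mean of that gene. CBP_SC_3 had 7 of 11 above (median 0.11, sum 1971), yet Ifit3 had its lowest value there, at 5.48, and Ifit1 read 5.45. CBP_SC_3 was also the array with the highest choroid plexus markers, 9 of 9 above their means (median 1.36, sum 7764), so its tissue content differed. The part of microglial RNA in the high Ifit3 of CBP_SC_5 was not tested.

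Endothelial markers lay above their means for 0 of 7 genes on WT_EE_3 (median -0.19) and for 2 of 7 on CBP_SC_5. Of blood markers, 4 of 5 lay above on WT_EE_3 and 1 of 5 on CBP_SC_5, with sums of 299 to 328 in CBP_EE, 246 to 302 in CBP_SC, 295 to 334 in WT_EE and 263 to 285 in WT_SC. The sums were higher in enriched than in standard-cage wild-type pools, while the ranges of cbp+/- pools overlapped between housings. With enrichment, 81.8% and 71.5% of probe sets of similar brightness lay above 0 in wild type and in cbp+/-. The haemoglobin genes Hba-a1 and Hbb-b1 had no probe set of their symbol alone. The part of blood in the members' higher housing means was not tested. Summed choroid plexus markers varied most, with 670 to 740 in CBP_EE, 601 to 7764 in CBP_SC, 621 to 1220 in WT_EE and 581 to 2442 in WT_SC. These markers lay above for 3 and 1 of 9, meningeal ones for 3 and 4 of 7, astrocytic ones for 1 and 1 of 5, neuronal ones for 4 and 5 of 8 on WT_EE_3 and on CBP_SC_5. Markers of plasmacytoid dendritic cells, the professional makers of interferon, lay above for 2 of 3 on each array, and 1 of them, Bst2, is itself interferon-stimulated.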

How the data were processed

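The authors deposited 1 intensity per probe set and array on a linear scale, for 28815 probe sets with 0 missing values. The submitters' processing notes name RMA for these intensities, and the labels' protocols name GeneSpring GX; their versions and any baseline step were not given in the sources used here, so the centring of the values is unknown. Array medians ran from 76.7 to 85.46. The scale was read from the values. The probe table of the platform holds 23385 of them, 21780 with 1 symbol and 1605 with several (not named), and 5430 are unnamed here. By gene number, 21689 matched RefSeq (GRCm38.p6) and 91 did not.

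Log2 of the deposited intensity was fitted in R 4.3.3 with limma 3.58.1 (lmFit, eBayes) as 4 group means over all 16 arrays (12 residual degrees of freedom). Differences come from this fit, with Benjamini-Hochberg adjustment across the 21780 probe sets and a threshold of 0.05. The script was tested on simulated data. Correlations were tested by 100000 permutations, two-sided. Pools of a group are labelled as independent biological replicates, and the number of arrays limits the precision. Standard errors are those of the moderated fit and SDs are over arrays.

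Same-numbered pools of both genotypes within a housing deviated together, with r of 0.26 to 0.77 for 8 of 8 pairs, so those numbers pair the genotypes, as a property of the arrays. Across housings r ran from -0.39 to 0.37, and the numbers do not pair. Named were the 9 genes, up to 3 genes per list with the smallest p in the 2 averaged comparisons, Crebbp, and the 8 genes most like the members; other genes named on single arrays were chosen after their values were seen. The members, lists and tests were chosen with earlier results of these data known. Alternatives were quantile normalization, leaving out dim probe sets, blocks for replicate number or array set, and leaving out each array.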

Additional observations from a re-analysis of the deposited data

Results flagged for a closer look

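Ifit3 had a log2 signal of 6.43 on CBP_SC_5, and the nearest of the other 4 pools of cbp+/- mice in standard cages read 5.69. The gap is 0.785 of the range of the group, above Dixon's 95% critical value of 0.71 for 5 samples. Of 14 groups of values tested this way, chance flags about 1 in 20. On the same array B2m was 0.72 above its mean and 9 of 11 microglial markers lay above theirs. B2m was also 0.58 above its mean on WT_SC_3, where Ifit3 read 5.49, and -0.99 from it on WT_SC_4, where Ifit3 read 5.91. Microglial markers lay above for 7 of 11 on CBP_SC_3, where Ifit3 was lowest. On CBP_SC_3, 9 of 9 choroid plexus markers also lay above their means, with a median deviation of 1.36. The part of B2m or of microglia in the value was not tested. Groups of 3 pools were not tested, so the high Ifit1 and Ifit3 of WT_EE_3 could not be flagged in this way.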

How the results depend on the processing

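No member passed the adjusted threshold in any comparison under any alternative, and the lowest adjusted p was 0.0842. Of 31 differences of single members examined, 13 kept their sign throughout and 18 turned somewhere; the causes were not tested. Leaving out dim probe sets removed all 7 members, which gives no value for them.

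Probe sets past the threshold for enrichment in wild type numbered 15 with array sets as a block, and 0 to 19 when 1 array was left out (3 without CBP_SC_3, 7 without CBP_EE_2 and 19 without CBP_EE_3), against 0 in the reported fit. For housing averaged over genotypes they numbered 15 with array sets, 326 with the replicate block, and 0 to 230 leaving out 1 array (1 without WT_EE_2 and 230 without CBP_EE_3), again against 0. For genotype averaged over housings, 1 passed with array sets. The replicate block changed no call of a member, but turned Ifit3 (0.11) and Usp18 (0.030) for enrichment in cbp+/-. Replicate numbers pair the genotypes within a housing and do not pair the housings. The replicate block therefore cannot decide a housing comparison, and no conclusion is drawn from the 326 probe sets or from these turned signs.

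The members' median difference moved for enrichment in wild type (0.065 with quantile normalization, 0.064 centred on similar brightness, 0.12 without both WT_EE_3 and CBP_SC_5, 0.12 to 0.20 leaving out 1 array) and in cbp+/- (0.00103 with array sets, -0.0056 to 0.095 leaving out 1 array, the lowest without CBP_EE_2). It moved for genotype in enrichment (-0.035, -0.017 and 0.0064 under the first 3 of these settings, -0.17 to 0.0064 leaving out 1 array) and for the interaction (-0.0665, -0.0523, -0.00747, and -0.22 to -0.016). For averaged housing it was 0.021 with quantile normalization and 0.031 centred.

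Quantile normalization and centring turned Rsad2 (-0.025 and -0.017) and Irf7 (-0.044 and -0.034) for enrichment in wild type, Rsad2 for genotype in enrichment (0.037 and 0.039), Irf7 for genotype in standard cages (-0.00101 and -0.0043) and Ifit1 for enrichment in cbp+/- (-0.020 and -0.016; -0.029 with array sets). Centring turned Oasl2 for genotype in enrichment (0.012). Without both WT_EE_3 and CBP_SC_5, an alternative added after the data were seen as was the centring, Ifit3 turned for enrichment in wild type (-0.022) and in cbp+/- (0.13), for genotype in standard cages (-0.12) and in enrichment (0.030) and for the interaction (0.15). Ifit1 turned for genotype in enrichment (0.15) and the interaction (0.099), and Oasl2 for genotype in enrichment (0.011).

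Leaving out 1 array gave these ranges where a sign turned. For enrichment in wild type, Ifit3 ran from -0.022 to 0.43. For enrichment in cbp+/-, Ifit3 ran from -0.12 to 0.13, Ifit1 from -0.068 to 0.12, Oasl2 from -0.046 to 0.18 and Usp18 from -0.061 to 0.020. For genotype in standard cages, Ifit2 ran from -0.0071 to 0.080, Ifit3 from -0.12 to 0.12, Usp18 from -0.011 to 0.070 and Irf7 from -0.058 to 0.053. For genotype in enrichment, Rsad2 ran from -0.058 to 0.028, Ifit3 from -0.42 to 0.030, Ifit1 from -0.24 to 0.15, Oasl2 from -0.20 to 0.031 and Irf7 from -0.019 to 0.066. The interaction of Ifit1 ran from -0.38 to 0.0068. Signals near the floor of the array limit what these differences can resolve.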
